A study of Mus musculus with 17 samples.

Results

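The unfolded protein and heat shock genes described here are 41 genes of the 22561 in the table, chosen by name for their place in the response to misfolded protein. They fall into 6 branches, namely 14 chaperones and folding enzymes of the endoplasmic reticulum (ER), 4 genes of ER-associated degradation, the 3 sensors of the unfolded protein response with Xbp1, 7 genes of the integrated stress response, 10 cytosolic heat shock genes and both genes of the mitochondrial chaperonin. All 41 symbols were found, each under 1 identifier.

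Poly(A) RNA of whole kidneys was sequenced from 17 male mice, 1 library per mouse, to ask what changes in the diabetic kidney and under treatment. Ctrl mice were of the strain C57BL/6 (n = 5). Case mice (n = 6) were db/db (BKS.Cg-Dock7m +/+ Leprdb/J), which lack the working long form of the leptin receptor and become obese and diabetic. Dapa mice (n = 6) were db/db and were given dapagliflozin, which blocks glucose uptake through SGLT2 in the proximal tubule, at 1 mg/kg per day by gavage for 6 weeks from 8 weeks of age. Ctrl and Case mice received saline. All groups had the same age, but Ctrl and db/db mice differ in strain background as well as in the receptor, and these cannot be told apart here. Mice are named by group and number (Ctrl 1 to 5, Case 1 to 6, Dapa 7 to 12).

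Totals per library ran from 13039535 to 17779635 counts, and 17.9% to 27.6% of them lay on mitochondrial genes. The mitochondrial share averaged 19.4% ± 1.02 (SD, n = 5) in Ctrl, 22.9% ± 2.85 (n = 6) in Case and 23.5% ± 3.32 (n = 6) in Dapa. In exact two-sided permutation tests it differed between Case and Ctrl with p = 0.0260 and between Dapa and Ctrl with p = 0.0303, and both q values were 0.0552 over the 6 comparisons of such library measures. In 7 libraries (Ctrl 1, 3 and 4, Case 1, Dapa 10, 11 and 12) 3 broken table entries that are no members carried counts and FPKM that did not match, and results were also computed without these libraries. Among these 7 the mitochondrial share averaged 19.9% in 3 Ctrl mice and 25.3% in 3 Dapa mice, and among the other 10 it averaged 18.6% in 2 Ctrl mice, 23.4% in 5 Case mice and 21.7% in 3 Dapa mice.

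Cells keep separate chaperone systems in the cytosol, the ER and the mitochondria. Misfolded protein in the ER is sensed by IRE1 (gene Ern1), ATF6 and PERK (gene Eif2ak3), which raise ER chaperones and degradation factors and, through PERK, slow translation by phosphorylation of eIF2alpha, the step on which the integrated stress response turns. In the cytosol the transcription factor HSF1 is held inactive by chaperones until misfolded protein draws them away. In the kidney the tubule cells, which take up and degrade filtered protein and carry many mitochondria, depend on all of these systems.

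The promoters show which members carry the sequence letters that these factors are known to bind. RefSeq's table for GRCm38.p6 held a promoter of 34 of the 41 members, from 250 bases before the start site to 50 after it, and both strands were searched. The other 7 (Hspa8, Hsp90aa1, Hsp90ab1, Hsf1, Hyou1, Manf and Atf6) were not searched. Their absence from the lists below is therefore no result. The 3-unit heat shock element GAANNTTCNNGAA was found in 3 members (Hsph1, Hspd1 and Hspe1) against 0.662% of all 27025 genes with a promoter. Its 2-unit forms, which overlap it, were more common. GAANNTTC was found in 8 members (Asns, Hspa1a, Hspa1b, Hspb1, Hsph1, Dnaja1, Hspd1 and Hspe1) and 9.04% of genes, and TTCNNGAA in 4 members (Eif2ak3, Hsph1, Hspd1 and Hspe1) and 9.60%. The ER stress response element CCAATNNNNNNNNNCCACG was found in 7 members (Hspa5, Hsp90b1, Pdia6, Canx, Dnajc3, Creld2 and Syvn1) and 0.137% of genes. The amino acid response letters TGATGNAA were found in 4 members (Herpud1, Trib3, Chac1 and Asns) and 4.51% of genes. Of the members searched, Ppp1r15a alone held the cyclic AMP element TGACGTCA, which was found in 2.03% of genes. A match describes the letters only, since no binding was measured in these samples.

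Heat shock elements are shown for 5 heat shock genes, with the matched letters in capitals, each on the strand of its gene and 5′ to 3′. Hspe1 (chr1:55088053-55088082, plus strand) holds 2 overlapping 3-unit matches, the first at position -89 from the start site. Hsph1 (chr5:149636351-149636380, minus strand) holds a 2-unit match at -33, and Dnaja1 (chr4:40722333-40722362, plus strand) at -124. The 3-unit match of Hsph1 lies after its start site, at 36 or 15 by the start site used. It is not displayed, because only bases before the start site are shown. Hspa1a (chr17:34972223-34972290) and Hspa1b (chr17:34959305-34959372), both on the minus strand, hold the same 68 bases with a match at -104, and were picked for display after their values were seen.
Hspe1: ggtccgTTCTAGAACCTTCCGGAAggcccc
Hsph1: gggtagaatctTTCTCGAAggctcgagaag
Dnaja1: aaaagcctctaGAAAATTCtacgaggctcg
Hspa1a: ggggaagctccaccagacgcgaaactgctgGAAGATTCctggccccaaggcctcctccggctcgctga
Hspa1b: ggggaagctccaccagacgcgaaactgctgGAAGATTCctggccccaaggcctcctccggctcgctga

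Hspd1 and Hspe1 lie on opposite strands, and RefSeq lists 2 start sites for Hspd1. From one of them, with 215 bases between it and the start of Hspe1, the genes are transcribed away from each other, and the promoter taken from it holds the Hspe1 stretch. The other lies inside Hspe1, so that these transcripts overlap, and its promoter does not hold the stretch. The promoters of Hspa1a and Hspa1b are identical at 247 of 250 bases (98.8%). The ER and stress response elements are shown for 2 ER chaperone genes and for Ppp1r15a, again with the match in capitals. The match starts at -105 in Dnajc3 (chr14:118937802-118937870, plus strand), at -145 in Canx (chr11:50325775-50325843, minus strand) and at -12 in Ppp1r15a (chr7:45526269-45526310, minus strand).
Dnajc3: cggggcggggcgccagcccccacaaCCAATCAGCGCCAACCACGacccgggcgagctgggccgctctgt
Canx: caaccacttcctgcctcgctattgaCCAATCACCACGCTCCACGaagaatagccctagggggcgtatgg
Ppp1r15a: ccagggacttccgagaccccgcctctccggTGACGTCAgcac

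Levels below are FPKM (fragments scaled by transcript length and library total). Differences are log2 fold changes from edgeR's quasi-likelihood test on the counts with TMM scaling, and q is its Benjamini-Hochberg adjusted p over all genes tested. A gene is called at q under 0.05. The TMM factors averaged 0.971 in Ctrl and 1.03 in Case, so a fitted change lies slightly below the ratio of FPKM means, and a few members with changes near 0 differ in sign between these measures. RNA of a whole kidney was measured, so fewer cells of a type and less RNA per cell cannot be told apart in any result below.

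The db/db kidney had lower levels of most cytosolic heat shock genes than the Ctrl kidney, with 6 of 10 called. Of 40 members that passed the filter on low counts, 9 were called between Case and Ctrl, against a background of 13.0% of 14582 genes. Lower in Case were 8 of them, where 6.91% of all genes were called lower. Only Ppp1r15a was called higher, where 6.09% of all genes were. The cytosolic heat shock branch gave 6 of the 8 lower calls from 10 genes, the mitochondrial chaperonin 1 of 2, ER-associated degradation 1 of 4, and the 14 ER chaperones and the 4 sensor genes none. The median log2 fold change was -0.71 over the cytosolic genes and -0.15 over the ER chaperones, beside -0.20 over all 40 members and 0.03 over all genes tested. Chac1, a glutathione-degrading enzyme induced by ATF4, did not pass the filter with 3 to 14 counts in Ctrl, 0 to 26 in Case and 2 to 10 in Dapa.

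**Figure D1:**
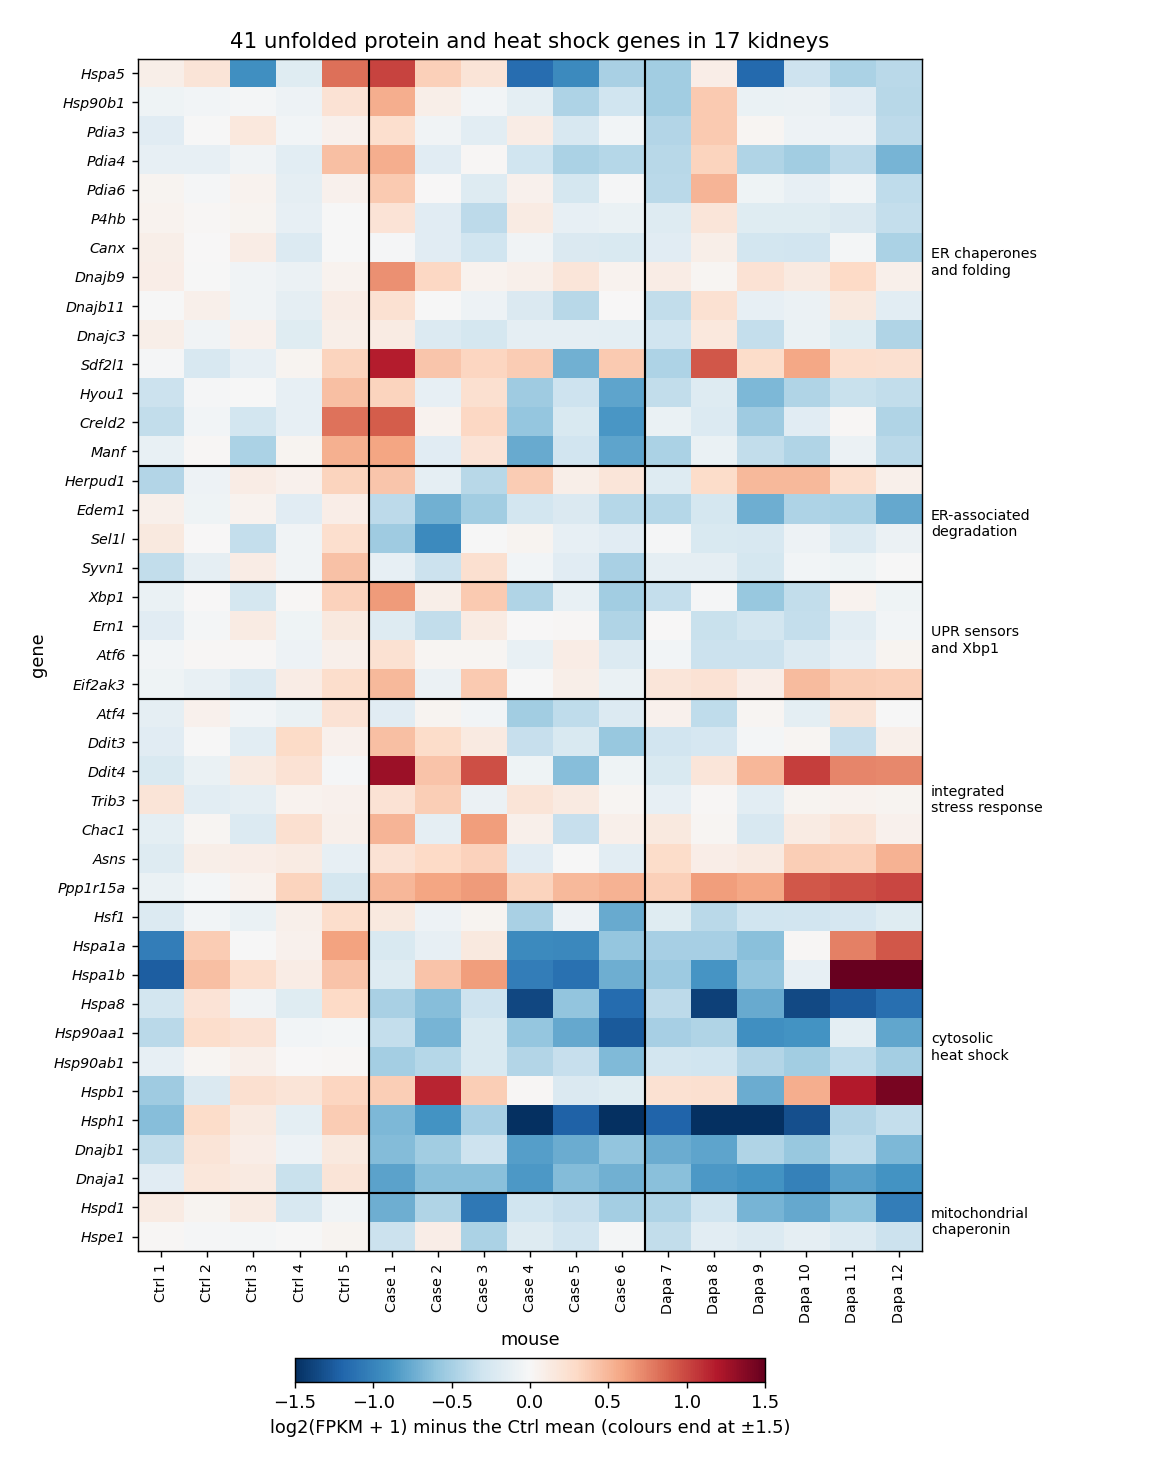
Heat map of the 41 genes (rows, by branch) in the 17 mice (columns), as log2(FPKM + 1) minus the Ctrl mean of the gene, with colours ending at 1.5 in either direction. Blue fields run through Hspa8, Hsp90aa1, Hsp90ab1, Hsph1, Dnajb1 and Dnaja1 in nearly all Case and Dapa mice, while the ER chaperone rows change from mouse to mouse, with Case 1 reddest.

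**Figure D2:**
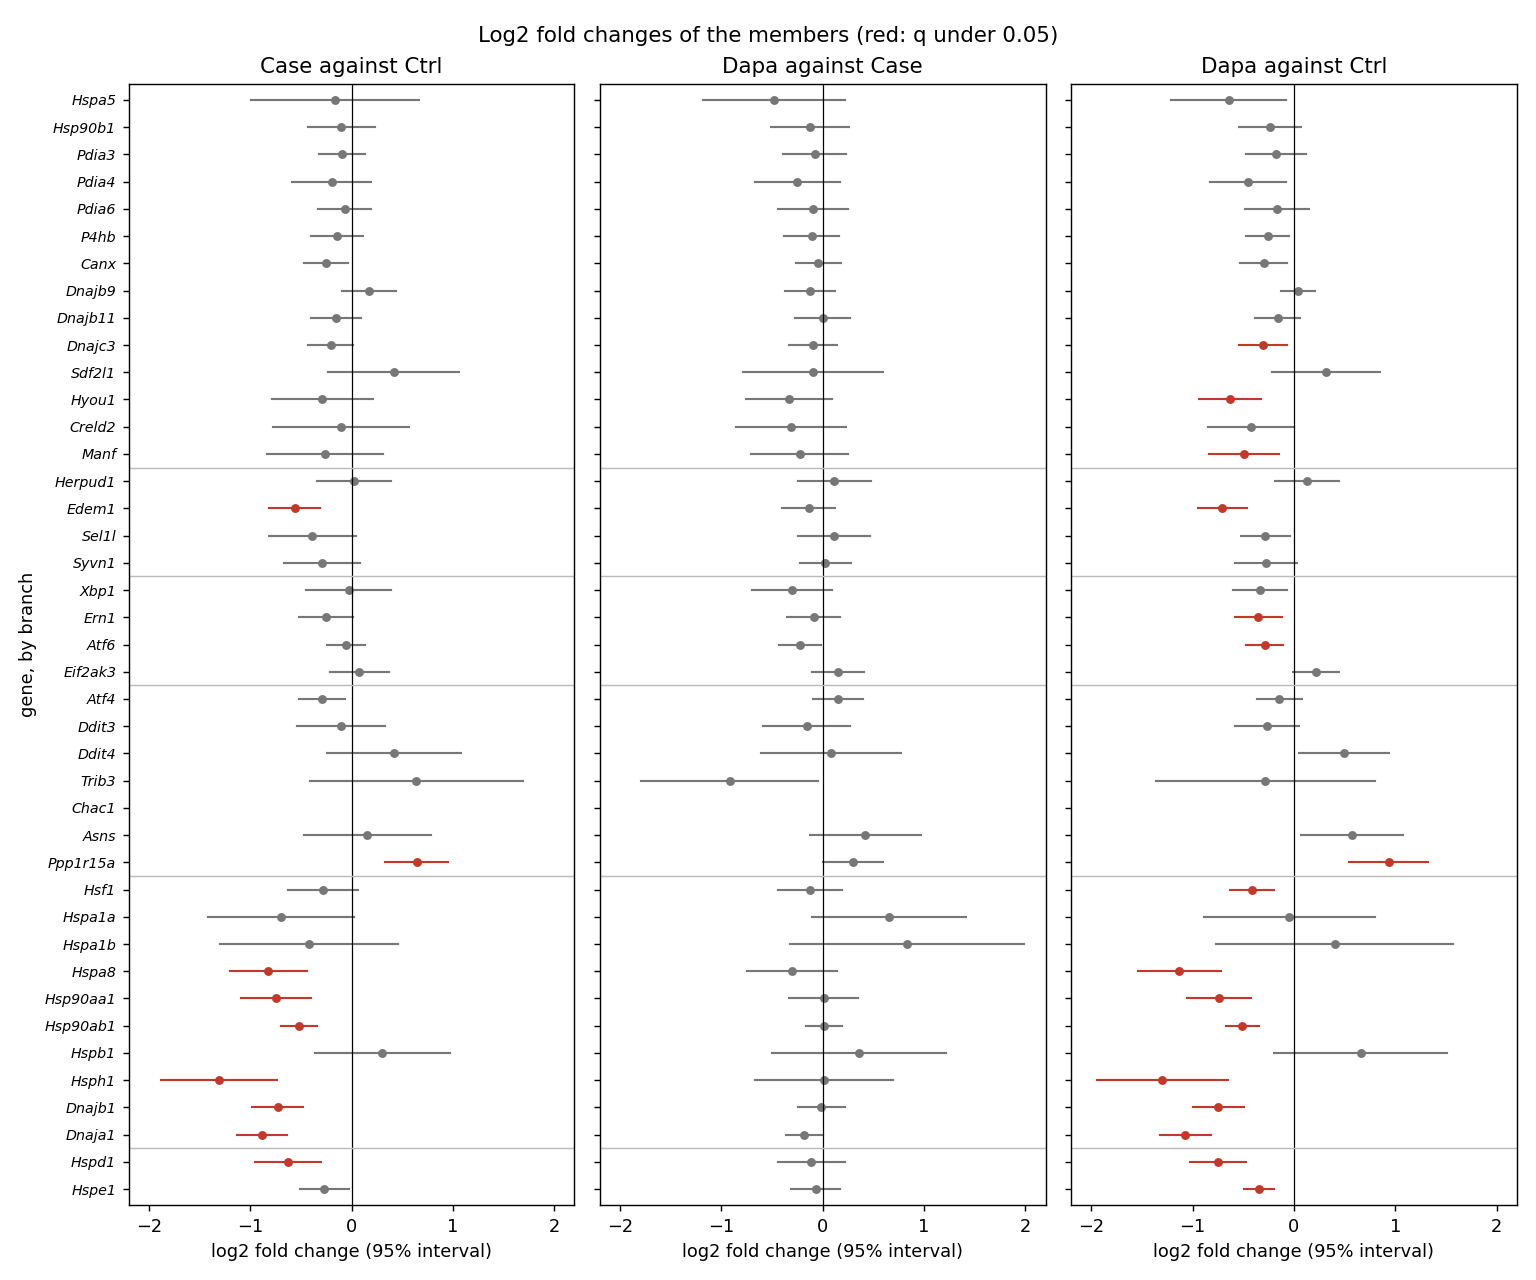
Log2 fold change of each member (point) with its 95% interval (line) in the 3 comparisons, in the same order and with branches divided by grey lines; red marks q under 0.05. The left panel holds 9 red members, the middle panel none and the right panel 16, and Chac1, which was not tested, has no point.

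Among the cytosolic chaperones of the HSP70 system, Hspa8, which encodes the constitutive HSC70, was the most abundant (ENSMUSG00000015656, chr9:40800984-40805200). Its FPKM was 113, 159, 133, 121 and 169.7 in Ctrl 1 to 5, 52.8 to 110.3 (median 89.6) in Case and 51.2 to 104 (median 59.8) in Dapa. Every Case and Dapa mouse lay below every Ctrl mouse. The change in Case was -0.82 on the log2 scale (SE 0.18, q = 0.0109). Hsph1, which encodes the nucleotide exchange factor HSP110 of the HSP70 cycle (ENSMUSG00000029657, chr5:149614287-149636376), stood at 8.01, 16.0, 14.5, 11.7 and 17.4 in Ctrl, 3.15 to 8.97 (median 5.82) in Case and 3.23 to 10.0 (median 4.90) in Dapa. It had the largest change of the called members in Case, -1.31 on the log2 scale (SE 0.26, q = 0.00827), and was the only member whose FPKM means also differed more than 2-fold, a rule passed by 3.79% of genes. The ranges of Hsph1 overlapped, because Ctrl 1 at 8.01 lay below Case 3 at 8.97.

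The J-domain proteins Dnaja1 and Dnajb1 deliver clients to HSP70. Dnaja1 (ENSMUSG00000028410, chr4:40722150-40737149) was 11.0, 14.2, 13.8, 9.76 and 14.5 in the Ctrl mice, 6.46 to 7.74 (median 7.41) in Case and 5.67 to 7.72 (median 6.35) in Dapa, with no overlap between Ctrl and either db/db group. Its change in Case, -0.89 on the log2 scale (SE 0.11, q = 0.000696), had the smallest q of the members. Dnajb1 (ENSMUSG00000005483, chr8:83608175-83611902) was 15.6, 23.6, 21.9, 19.3 and 22.8 in Ctrl, 11.1 to 16.3 (median 12.9) in Case and 11.4 to 15.5 (median 12.9) in Dapa. It fell in Case by 0.73 log2 units (SE 0.12, q = 0.00232), and its ranges overlapped only through Ctrl 1 at 15.6 and Case 3 at 16.3.

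Both cytosolic HSP90 genes, whose products fold kinases and steroid receptors, were lower in Case. The inducible form Hsp90aa1 (ENSMUSG00000021270, chr12:110690605-110702728) was 25.6, 41.2, 40.0, 33.2 and 33.4 in Ctrl, 13.7 to 29.1 (median 21.6) in Case and 17.6 to 30.9 (median 21.8) in Dapa, and here Ctrl 1 lay within the range of the db/db mice. Its change in Case was -0.74 on the log2 scale (SE 0.16, q = 0.0116). The constitutive form Hsp90ab1 (ENSMUSG00000023944, chr17:45567775-45573271) was 144, 160.4, 167, 159 and 159 in Ctrl, 99.5 to 135 (median 116) in Case and 109.8 to 131 (median 118) in Dapa. Its change was the smallest in size of the 6, -0.52 on the log2 scale (SE 0.08, q = 0.00200), but the groups did not overlap.

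The other 4 cytosolic genes were not called in Case. Hsf1, the transcription factor of the branch, was 7.69, 8.76, 8.32, 9.59 and 11.0 in Ctrl, 4.93 to 10.1 (median 8.52) in Case and 6.56 to 7.83 (median 7.31) in Dapa, with -0.28 on the log2 scale (SE 0.16, q = 0.264) in Case. The inducible HSP70 genes Hspa1a and Hspa1b and the small heat shock protein gene Hspb1 had log2 fold changes of -0.69 (q = 0.190), -0.42 (q = 0.534) and 0.30 (q = 0.560). Their 95% intervals were wide, with that of Hspa1b running from -1.30 to 0.45.

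In the mitochondrion, Hspd1 encodes HSP60, the barrel of the chaperonin, and Hspe1 encodes HSP10, its lid. Hspd1 (ENSMUSG00000025980, chr1:55077835-55088243) was 255, 241, 255, 198 and 225 in Ctrl, 111 to 189.9 (median 168) in Case and 113 to 189 (median 149) in Dapa, without overlap between Ctrl and the db/db groups. It fell in Case by 0.63 log2 units (SE 0.15, q = 0.0180). Without Ctrl 3 the value was -0.60 with q = 0.0511, just outside the threshold on 1 mouse fewer. Hspe1 (ENSMUSG00000073676, chr1:55088132-55091307) was 54.9, 53.6, 53.3, 54.0 and 55.9 in Ctrl, 38.7 to 58.3 (median 45.8) in Case and 41.7 to 49.2 (median 46.9) in Dapa. The 5 Ctrl mice lay within 1.05-fold of one another, whereas the Case mice spanned 1.5-fold, and the change in Case was -0.27 on the log2 scale (SE 0.11, q = 0.135). The share of counts on genes of the mitochondrial genome averaged higher in Case, but did not pass the threshold (permutation test, q = 0.0552). Its part in these results was not tested.

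**Figure D3:**
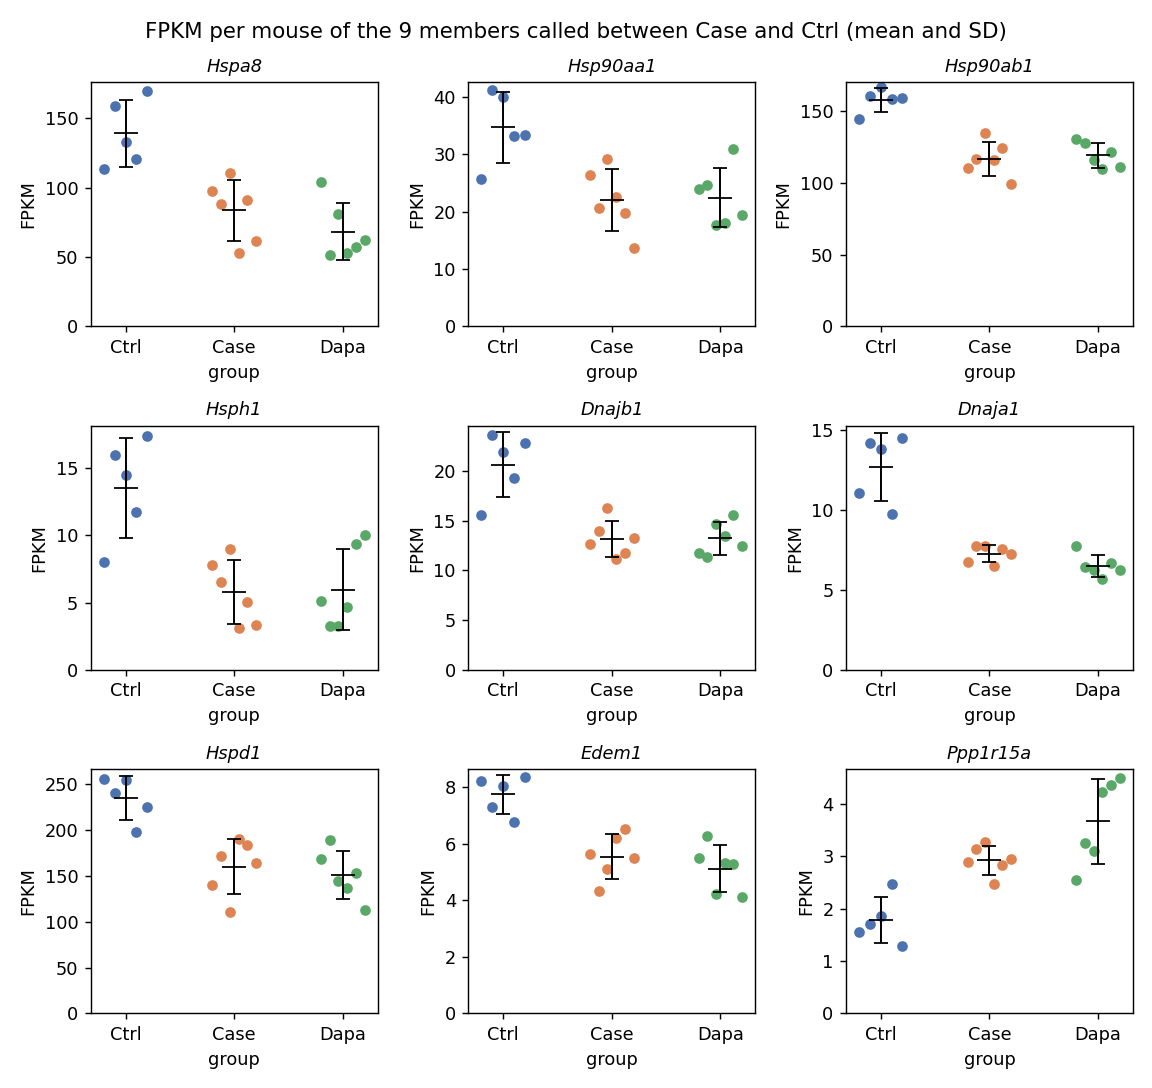
FPKM of the 9 members called between Case and Ctrl in each mouse (points), with group mean and SD (bars), on axes that start at 0. In 8 panels the Case and Dapa points sit low beside Ctrl, and in the panel of Ppp1r15a they sit high.

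The 14 ER chaperones and folding enzymes gave no call between Case and Ctrl. Canx alone had an unadjusted p under 0.05, and 12 of the 14 changes lay below 0, between -0.29 and 0.42 for the branch. The most abundant was P4hb, a protein disulfide isomerase, with 168, 165, 167, 149 and 162 in Ctrl, 123 to 186 (median 149.9) in Case and 127 to 184 (median 142) in Dapa, and its change in Case was -0.14 on the log2 scale (SE 0.12, q = 0.460). Canx encodes calnexin, the lectin chaperone of new glycoproteins. It was 63.2, 59.9, 64.4, 51.3 and 59.1 in Ctrl, 47.9 to 58.5 (median 52.0) in Case and 42.6 to 63.1 (median 50.8) in Dapa, with -0.25 on the log2 scale (SE 0.10, q = 0.116). The groups overlapped for every gene of the branch.

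Hspa5, the gene of BiP, the HSP70 of the ER and its classical stress marker, was among the most variable. It ranged from 22.7 to 78.6 in Ctrl, from 19.3 to 89.8 in Case and from 18.9 to 47.2 in Dapa. Its change in Case was -0.16 with a 95% interval from -1.0 to 0.67, so changes of either sign lay within it. Hsp90b1, the ER form of HSP90, had a log2 fold change of -0.10 with a narrower interval from -0.43 to 0.23. The disulfide isomerases Pdia3, Pdia4 and Pdia6 had log2 fold changes of -0.09, -0.20 and -0.07, and the smallest q of these was 0.515. The 2 changes above 0 belonged to Dnajb9 (0.17, q = 0.384) and Sdf2l1 (0.42, q = 0.387), both cofactors of BiP.

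The remaining genes of the branch are the BiP cofactors Dnajb11 and Dnajc3, the ER exchange factor Hyou1, and the secreted or ER-resident stress proteins Creld2 and Manf. Dnajc3 was 41.9, 38.2, 41.2, 34.6 and 42.1 in Ctrl, 32.8 to 43.0 (median 35.7) in Case and 28.7 to 44.1 (median 33.3) in Dapa, and its change in Case was -0.21 on the log2 scale (SE 0.10, q = 0.194). Hyou1 was 3.38, 4.41, 4.44, 4.02 and 6.49 in Ctrl, 2.17 to 5.91 (median 3.71) in Case and 2.41 to 3.77 (median 3.23) in Dapa. Manf was 7.49, 8.27, 5.58, 8.44 and 12.3 in Ctrl, 4.32 to 12.8 (median 6.84) in Case and 5.59 to 7.67 (median 6.01) in Dapa. In both of these Ctrl 5 and Case 1 were the highest mice of their groups. The changes in Case were -0.29 for Hyou1 (q = 0.437), -0.26 for Manf (q = 0.559), -0.15 for Dnajb11 (q = 0.411) and -0.10 for Creld2 (q = 0.864).

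**Figure D4:**
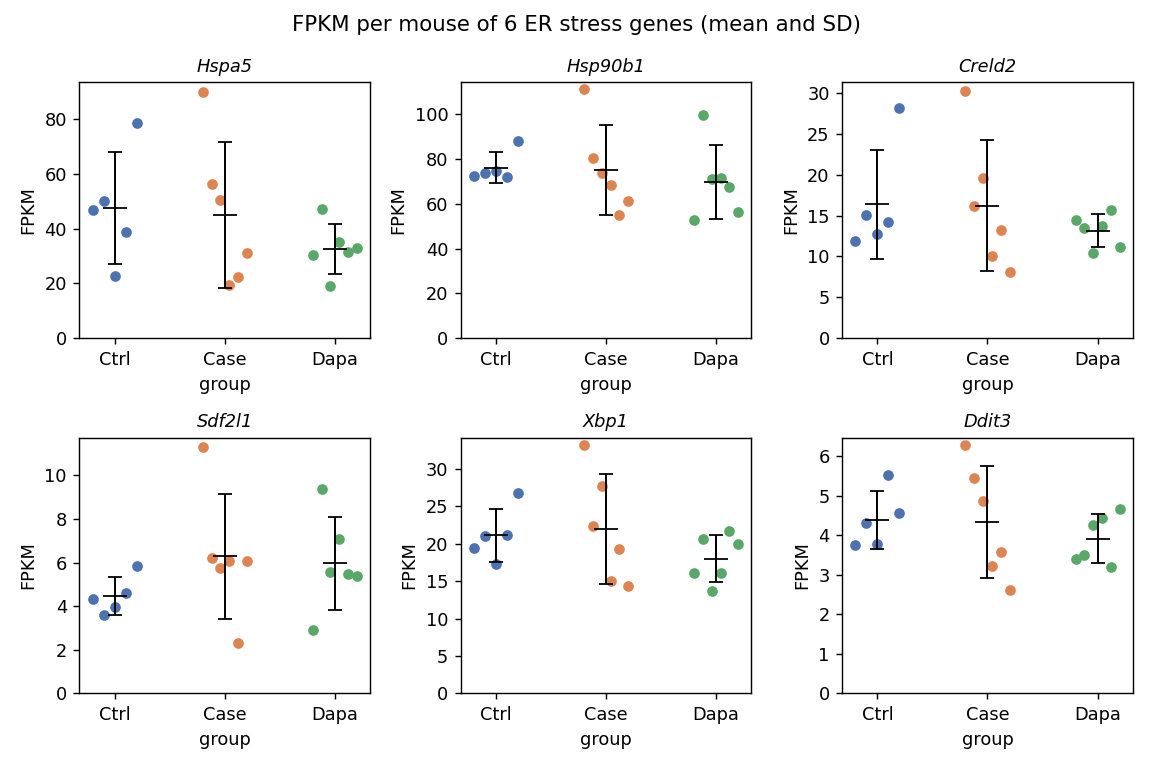
FPKM of Hspa5, Hsp90b1, Creld2, Sdf2l1, Xbp1 and Ddit3 in each mouse (points) with group mean and SD (bars), on axes that start at 0. The 3 groups overlap in every panel, and Case 1, which is among the 7 libraries with mismatched entries, is the highest Case mouse in all 6.

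Of the 4 genes of ER-associated degradation, which returns misfolded ER protein to the cytosol for destruction, only Edem1 was called. Edem1 encodes a protein that takes misfolded glycoproteins out of the folding cycle (ENSMUSG00000030104, chr6:108828641-108859356). It was 8.22, 7.32, 8.04, 6.78 and 8.37 in Ctrl, 4.31 to 6.51 (median 5.58) in Case and 4.11 to 6.27 (median 5.30) in Dapa, and no db/db mouse reached the lowest Ctrl mouse. The change was -0.56 on the log2 scale (SE 0.12, q = 0.00983). Herpud1, a scaffold of the degradation complex, was the most abundant gene of the branch at 47.3, 60.9, 69.6, 67.4 and 81.2 in Ctrl, 47.9 to 86.2 (median 70.5) in Case and 56.2 to 90.8 (median 77.2) in Dapa, with a change of 0.02 (q = 0.944). Sel1l and Syvn1, the adaptor and the ubiquitin ligase of the main complex, had log2 fold changes of -0.39 (q = 0.215) and -0.29 (q = 0.287).

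The sensors were not called in Case. Xbp1 encodes the transcription factor whose RNA is spliced by IRE1, a step that gene-level counts do not show. It was 19.4, 21.0, 17.3, 21.1 and 26.7 in Ctrl, 14.3 to 33.2 (median 20.8) in Case and 13.7 to 21.7 (median 18.0) in Dapa, with -0.03 on the log2 scale (SE 0.19, q = 0.944). Ern1 was 3.43, 3.88, 4.43, 3.79 and 4.54 in Ctrl, 2.66 to 4.46 (median 3.69) in Case and 2.92 to 4.03 (median 3.30) in Dapa, with -0.25 on the log2 scale (SE 0.12, q = 0.198). The ATF6 gene Atf6 was 7.21, 7.55, 7.52, 6.98 and 7.91 in Ctrl, 6.34 to 8.91 (median 7.61) in Case and 5.73 to 7.65 (median 6.52) in Dapa, with -0.06 on the log2 scale (SE 0.09, q = 0.707). Eif2ak3 had a log2 fold change of 0.08 (q = 0.747). The intervals of these 4 genes lay between -0.52 and 0.39.

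In the integrated stress response, Ppp1r15a rose and the others were not called. Ppp1r15a encodes GADD34, which brings a phosphatase to eIF2alpha and so ends the translation arrest (ENSMUSG00000040435, chr7:45522916-45526268). Its FPKM was 1.56, 1.71, 1.86, 2.47 and 1.30 in Ctrl, 2.47 to 3.28 (median 2.93) in Case and 2.54 to 4.51 (median 3.75) in Dapa. Ctrl 4 and Case 4 were both near 2.47, and otherwise every Case mouse lay above Ctrl. The change was 0.64 on the log2 scale (SE 0.14, q = 0.0140).

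Atf4, the transcription factor whose translation the response favours, was 43.0, 49.4, 46.0, 44.1 and 55.0 in Ctrl, 32.6 to 48.8 (median 41.4) in Case and 36.1 to 54.3 (median 47.7) in Dapa. Its change in Case, -0.29 on the log2 scale (SE 0.11, q = 0.0897), was the nearest to the threshold among members not called. The log2 fold changes of ATF4 targets differed in sign. Trib3, a pseudokinase, was low in all mice at 0.350, 0.0577, 0.0752, 0.224 and 0.240 in Ctrl, 0.116 to 0.524 (median 0.329) in Case and 0.0607 to 0.233 (median 0.207) in Dapa, on 3 to 25 counts. Its log2 fold change was 0.64 (q = 0.414). That of Ddit3, the gene of CHOP, was -0.10 (q = 0.780), that of the mTORC1 inhibitor Ddit4 0.42 (q = 0.395) and that of asparagine synthetase Asns 0.16 (q = 0.762).

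The number of calls depended on which libraries were used. It was 8 or 9 when any 1 mouse was left out, while the count over all genes ran from 1002 to 2154. It was 3 (Hsph1, Dnajb1 and Dnaja1) without the 7 libraries named above, where 2 Ctrl and 5 Case mice remained and the count over all genes fell from 1895 to 258. All 9 members kept their sign there, with Hspa8 at -1.11. The FPKM of Case and Ctrl did not overlap in 5 of the 40 members tested (12.5%), against 8.43% of all genes tested, and these were Edem1, Hspa8, Hsp90ab1, Dnaja1 and Hspd1.

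Dapagliflozin gave no call among these genes. Between Dapa and Case 0 of the 40 members tested passed, and by edgeR's quasi-likelihood test the background was also 0% of 14573 genes. With no adjustment 3 members had a p under 0.05 in that test, against 12.9% of all genes. These were Atf6 (-0.23, q = 0.349), Trib3 (-0.92, q = 0.368) and Ppp1r15a (0.30, q = 0.384). DESeq2 and edgeR's exact test called no member either, while calling 202 and 125 genes over the whole table. Trib3 stood at 3 to 10 counts in Dapa.

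The intervals between Dapa and Case differed in width from gene to gene. Among the 8 members called lower in Case, Hsp90ab1 stood at 0.01 on the log2 scale in Dapa relative to Case, with a 95% interval from -0.17 to 0.19, and Dnajb1 one of -0.01 with an interval from -0.25 to 0.22. Hsph1 had a wide interval, from -0.67 to 0.69, as Dapa 11 and 12 at 9.37 and 10.0 stood well above Dapa 8 at 3.23. Dnaja1 was -0.18 (q = 0.389), Hspa8 -0.30 (q = 0.543) and Edem1 -0.14 (q = 0.652), with the lower value in Dapa each time. All 14 ER chaperones had a value below 0, from -0.48 for Hspa5 to -0.0018 for Dnajb11, with no unadjusted p under 0.05 among them. Without the 7 mismatched libraries, recomputed for Dnajc3, Hyou1, Manf, P4hb and Canx, the values were 0.02, -0.18, 0.01, 0.06 and 0.07, so that Hyou1 alone of these stayed below 0. The values of the branch are not independent, since some genes of this branch varied together between mice.

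Hspa1a and Hspa1b had the largest values above 0 between Dapa and Case, 0.65 (SE 0.36, q = 0.442) and 0.83 (SE 0.54, q = 0.522). Hspa1b was 23.8 in Dapa 11 and 22.0 in Dapa 12, but at most 6.10 in the other 4 Dapa mice. Hspa1a was 8.23 and 9.46 in the same 2 mice, and Hspb1 was 7.53 and 9.04. Both mice belong to the 7 libraries with mismatched entries, and the part of this in the high values was not tested. Between Dapa and Ctrl the values on all mice were -0.04 for Hspa1a (q = 0.941) and 0.40 for Hspa1b (q = 0.609). Without the 7 libraries, a choice made after seeing the data that left 2 Ctrl and 3 Dapa mice, both were called lower in Dapa (-1.35 and -1.37), so the direction of Hspa1b turned.

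Between Dapa and Ctrl, 16 members were called, against 29.1% of 14647 genes. Lower in Dapa were 15, where 14.9% of all genes were called lower, and higher was Ppp1r15a, where 14.2% were called higher. This comparison shares its Ctrl mice with that of Case and Ctrl, so the same members reaching a call in both is not independent evidence. By branch, 7 of 10 cytosolic genes, both chaperonin genes, 3 of 14 ER chaperones, 2 of 4 sensor genes, 1 of 4 degradation genes and 1 of 6 tested genes of the integrated stress response were called. The median log2 fold change was -0.29 over members and 0.02 over all genes. Values did not overlap between Dapa and Ctrl in 8 members, against 14.5% of all genes.

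For the 9 members called in both comparisons the values stood side by side as follows. Hspa8 was -0.82 in Case and -1.13 in Dapa (q = 0.00132), Dnaja1 -0.89 and -1.07 (q = 0.000153), and Hsph1 -1.31 and -1.30 (q = 0.00699). Dnajb1 was -0.73 and -0.75 (q = 0.000935), Hsp90aa1 -0.74 and -0.74 (q = 0.00348), and Hsp90ab1 -0.52 and -0.51 (q = 0.000688). Edem1 was -0.56 and -0.71 (q = 0.000977), Hspd1 -0.63 and -0.75 (q = 0.00143), and Ppp1r15a 0.64 and 0.94 (q = 0.00275). A fold above 2 between FPKM means was also reached by Hspa8, Hsph1 and Ppp1r15a in Dapa, against 7.18% of genes. Hsph1 depended most on the libraries, with -0.64 (q = 0.151) among the mismatched libraries alone (3 mice in each group) and -2.19 (q = 0.0126) without them.

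The other 7 called members had the same sign in Case, where they were not called. Hspe1 (-0.34, SE 0.07, q = 0.00351) and Hsf1 (-0.41, SE 0.10, q = 0.00854) kept their call whichever single mouse was left out, as did Hyou1 (-0.63, SE 0.14, q = 0.00646). The calls of the remaining 4 lay near the threshold, and each was lost without any of several mice, with fewer mice in the fit. Manf was -0.49 (q = 0.0346) and -0.33 (q = 0.0869) without Ctrl 5, its highest Ctrl mouse, and it also lost its call without Ctrl 1 or 2 or Dapa 7, 9, 10 or 12. Ern1 was -0.35 (q = 0.0259), with q = 0.0763 without Ctrl 3 and q above the threshold also without Ctrl 5, Dapa 8 or Dapa 10.

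Atf6 was -0.29 (q = 0.0237) and lost its call without Ctrl 1, 2, 3 or 5, with values of -0.27 and q from 0.0513 to 0.0569. Dnajc3 was -0.31 (q = 0.0495) and, with single mice left out, kept its call only without Ctrl 4 or Dapa 8, with values from -0.33 to -0.25 where it was lost. On all mice limma ended the calls of Manf, Ern1, Atf6 and Dnajc3 (q from 0.131 to 0.147). That of Manf was also lost with voom (q = 0.0620) and with all 3 groups in one fit (q = 0.123), that of Atf6 with upper quartile scaling (q = 0.0516), and that of Dnajc3 with each other scaling and filter and with a term for the 7 libraries (q from 0.0501 to 0.0715). Just outside the threshold were Canx (-0.30, q = 0.0507), Xbp1 (-0.34, q = 0.0557) and P4hb (-0.26, q = 0.0645), and all 3 were called without Dapa 8. The count of calls ran from 12 (without Ctrl 5) to 22 (without Dapa 8) when single mice were left out, and over all genes from 3227 to 4690. Without the 7 mismatched libraries it was 5, made up of Hsph1, Dnajb1 and Dnaja1 with Hspa1a (-1.35, q = 0.0234) and Hspa1b (-1.37, q = 0.0269), and over all genes it was 273.

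In Case and Dapa the highest mouse differed between the ER and the cytosolic branch. As a mean of log2(FPKM + 1) over the 14 ER chaperones, Ctrl lay from 4.80 to 5.20, Case from 4.58 to 5.41 and Dapa from 4.58 to 5.12, and Ctrl 5, Case 1 and Dapa 8 were highest. Over the cytosolic genes the same mean ran from 3.72 (Ctrl 1) to 4.48 in Ctrl, from 3.39 to 4.12 in Case and from 3.47 to 4.22 (Dapa 11) in Dapa. Ctrl 5 was the highest Ctrl mouse in both branches, whereas Case 1 and Dapa 8 led the ER branch and Case 3 and Dapa 11 the cytosolic one. Case 1 and Dapa 11 belong to the 7 libraries with mismatched entries, and the part of this in their high values was not tested. Xbp1 was highest in Ctrl 5, Case 1 and Dapa 11.

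Genes of a branch were compared with each other over the 17 mice after the group mean of log2(FPKM + 1) was removed, for 8 pairs. Hspa1b went with Hsph1 (Pearson's r = 0.904, permutation p = 0.00018, q = 0.00072; Spearman's rho = 0.877, p = 0.00027) and with Dnajb1 (r = 0.681, permutation p = 0.00439, q = 0.0106; rho = 0.721, p = 0.00291). Hspa1a and Hspa1b had r = 0.958 (permutation p = 1e-05, the smallest that 100000 permutations can give; rho = 0.949, p = 4e-05). Without the 2 mice farthest from the median, r was 0.877, 0.544 and 0.945 in the same order. Within Ctrl, Case and Dapa alone, r of Hspa1b and Hsph1 was 0.948, 0.804 and 0.959. For Hspa1b and Dnajb1 it was 0.957, 0.886 and 0.444, so that relation was weakest in Dapa. With no group mean removed the relation of Hspa1b and Dnajb1 did not pass (r = 0.390, q = 0.193). Of the 50-base stretches of Hspa1a transcripts, 58.8% also occur in Hspa1b, so their reads can be split between the copies and their agreement is uncertain.

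In the ER branch Hspa5 went with Hsp90b1 (r = 0.664, permutation p = 0.00528, q = 0.0106; rho = 0.713, p = 0.00475) and with Sdf2l1 (r = 0.603, permutation p = 0.0180, q = 0.0288; rho = 0.583, p = 0.0154). Without the 2 farthest mice r was 0.563 and 0.562. Within Ctrl, Case and Dapa alone, r was 0.653, 0.873 and 0.428 for Hspa5 and Hsp90b1, and 0.605, 0.712 and 0.475 for Hspa5 and Sdf2l1. With no group mean removed Hspa5 and Sdf2l1 did not pass (r = 0.474, q = 0.107). Among 6 mismatched libraries of Ctrl and Dapa, r of Hspa5 and Hsp90b1 was -0.09, and among the 10 other libraries 0.607, so this relation did not hold within the smaller set. For Hspa5 and Sdf2l1 these values were 0.435 and 0.482, for Hspa1b and Hsph1 0.978 and 0.807, for Hspa1b and Dnajb1 0.598 and 0.794, and for Hspa1a and Hspa1b 0.957 and 0.945.

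The remaining 3 pairs gave no relation that passed the test. Ddit3 and Trib3 had r = 0.230 (permutation p = 0.468, q = 0.534; rho = 0.184, p = 0.530), and r = 0.07 without the 2 farthest mice. Across branches Hspa1b and Hspa5 had r = 0.295 (permutation p = 0.227, q = 0.303; rho = 0.287, p = 0.264), r = 0.380 without the 2 farthest mice, 0.687 in the 10 libraries and -0.58 in the 6. Hspa1b and the immediate early gene Fos had r = 0.03 (permutation p = 0.911, q = 0.911; rho = 0.05, p = 0.848), and r = 0.121 without the 2 farthest mice, with -0.34 in the 10 libraries and 0.186 in the 6.

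**Figure D5:**
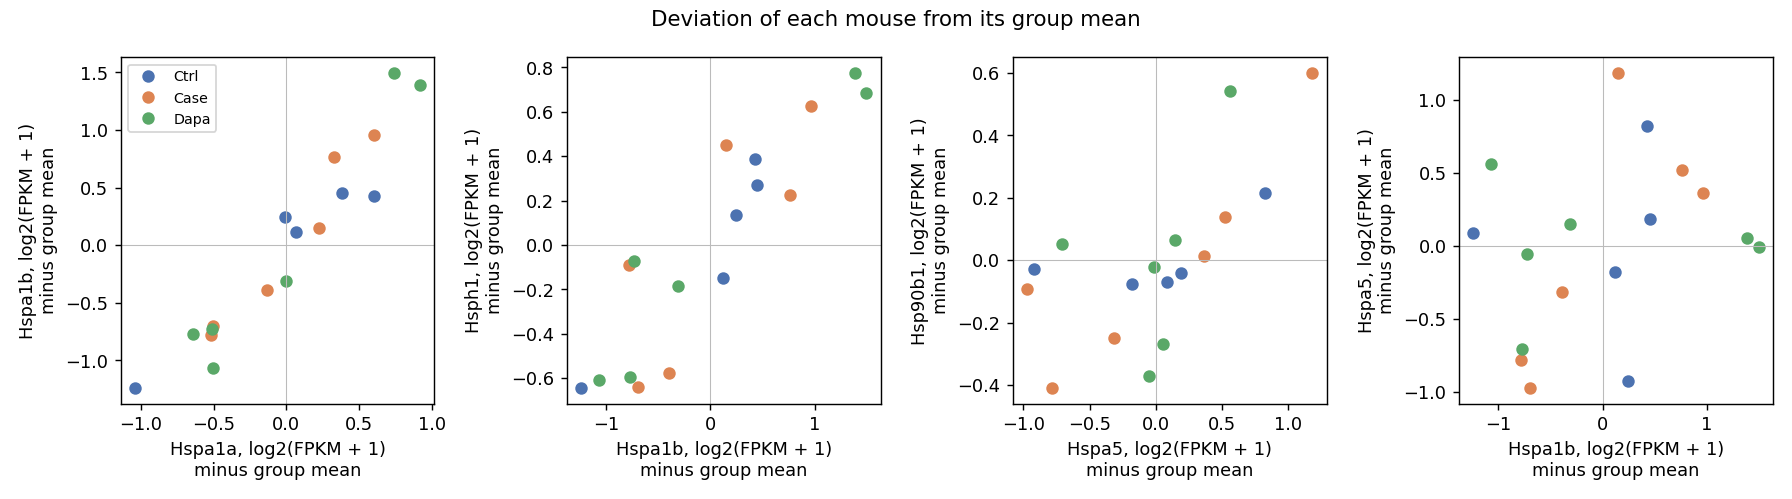
Deviation of each mouse (point, coloured by group) from its group mean of log2(FPKM + 1) for 4 pairs of members. The points of Hspa1a with Hspa1b and of Hspa1b with Hsph1 lie along a line (r = 0.958 and 0.904), those of Hspa5 with Hsp90b1 scatter more (0.664), and those of Hspa1b with Hspa5 do not follow one (0.295).

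Other genes of the same systems were counted in the same fits, in which 6.09% of all genes were called higher and 6.91% lower in Case, and 14.2% higher and 14.9% lower in Dapa against Ctrl. Of 47 other heat shock proteins and co-chaperones, 1 was called higher and 7 lower in Case, and 4 higher and 15 lower in Dapa against Ctrl. Both shares of lower calls lay above those of all genes and both shares of higher calls below them. Ahsa2, which resembles an activator of HSP90, was -0.89 in Case (q = 0.00166) and -1.29 in Dapa (q = 0.0000586), and the HSP90 cochaperone Chordc1 -0.64 (q = 0.0542) and -1.28 (q = 0.000267). The lens and muscle small heat shock protein Cryab rose in Dapa by 1.53 (q = 0.0379). Of 13 other mitochondrial chaperones and proteases, 5 were lower in Case and 6 in Dapa, none higher, among them Grpel2 (-0.41 in Case, q = 0.0374), Spg7 (-0.36, q = 0.00777) and Trap1 (-0.32, q = 0.0449).

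In the ER, of 39 other folding and translocation genes 1 was called higher and 3 lower in Case, and 2 higher and 9 lower in Dapa against Ctrl. The share called lower in Case was near the 6.91% of all genes, and that in Dapa lay above the 14.9% of all genes. The disulfide isomerase Pdia5 was -0.46 in Case (q = 0.0272) and -0.77 in Dapa (q = 0.00333), the calcium-binding Rcn1 rose in Case by 0.68 (q = 0.0397), and the glycosylation subunit Ostc was -0.53 in Dapa (q = 0.0193). Of 25 other degradation genes 1 was higher and 2 lower in Case, and 1 higher and 8 lower in Dapa. Their shares in Case were near those of all genes (6.09% higher and 6.91% lower). In Dapa the share called lower lay above the 14.9% of all genes, and the share called higher below the 14.2%. Derl3, an ER channel component, rose in Case by 2.14 (q = 0.0493) from a mean of 0.265 FPKM. In Dapa Edem3, a relative of Edem1, was -0.39 (q = 0.00787) and Ufd1l, a cofactor of extraction from the ER, 0.36 (q = 0.0401).

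Of 15 other regulators of the unfolded protein response, 1 was lower in Case, the cell death suppressor Tmbim6 (-0.34, q = 0.0395). In Dapa 1 was higher, the ER protein of Wolfram syndrome Wfs1 (0.76, q = 0.0370), and 2 were lower, Tmbim6 (-0.33, q = 0.0302) and Atf6b, the relative of Atf6 (-0.39, q = 0.0192). Of 44 other genes of the integrated stress response, 3 were higher and 2 lower in Case, and 8 higher and 6 lower in Dapa, which is near the shares of all genes in both comparisons (6.09% and 6.91% in Case, 14.2% and 14.9% in Dapa). Nupr1, a stress-induced chromatin protein, was 2.08 in Case (q = 0.00307) and 2.04 in Dapa (q = 0.00380), and the amino acid transporter Slc7a5 1.06 (q = 0.0154) and 1.96 (q = 0.000710). The cell cycle inhibitor Cdkn1a rose in Dapa by 1.28 (q = 0.00504).

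Members of 2 lists were called higher where heat shock genes were called lower, namely RNA-binding genes induced by cold and immediate early genes, which respond quickly to many stimuli. Cirbp was 0.82 in Case (q = 0.0251) and 1.46 in Dapa (q = 0.0000964), and Rbm3 0.38 (q = 0.0889) and 0.24 (q = 0.0492). The summed FPKM of these 2 genes ran from 14.3 to 17.6 in Ctrl, 20.6 to 34.4 in Case and 30.7 to 43.4 in Dapa, with no overlap between Ctrl and db/db mice. Of 19 immediate early genes 7 were called higher in Case and 12 in Dapa, none lower, against 6.09% and 14.2% of all genes called higher. Fos was 2.80 in Case (q = 0.0235) and 3.05 in Dapa (q = 0.000727), Egr1 2.40 (q = 0.0182) and 2.35 (q = 0.000688), and Fosb 3.23 in Dapa (q = 0.00208). Their summed FPKM was 110.8 to 142 in Ctrl, 118 to 206 in Case and 144 to 249 in Dapa. Their part in the heat shock result was not tested.

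Markers of kidney cell types also differed between Ctrl and the db/db groups. All 12 proximal tubule markers were detected, and their summed FPKM was 10895 to 18272 in Ctrl, 2514 to 5801 in Case and 3211 to 7550 in Dapa, mostly through the androgen-regulated Kap (-2.95 in Case, q = 0.00110). Lower were 4 of 12 in Case and 8 of 12 in Dapa, against 6.91% and 14.9% of all genes, among them the protein uptake receptor Lrp2 (-0.98 in Case, q = 0.00406) and the organic anion transporter Slc22a6 (-0.84, q = 0.0249). Of 12 markers of the distal nephron and collecting duct, 4 were higher in Case and 8 in Dapa, against 6.09% and 14.2% of all genes, with sums of 784 to 1907 in Ctrl, 1373 to 3216 in Case and 1739 to 2598 in Dapa. Calb1 rose in Case by 1.55 (q = 0.00348), Aqp2 by 0.78 (q = 0.0395) and Slc4a1 by 0.79 (q = 0.00601).

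Of 8 podocyte markers 3 were higher in Case and 4 in Dapa, against the same shares of all genes, with sums of 67.2 to 86.5 in Ctrl, 77.0 to 116 in Case and 85.9 to 111 in Dapa, among them Cdkn1c (0.90 in Case, q = 0.00688) and Nphs1 (0.59, q = 0.00361). Whether a shift between these cell types took part in the results on the members was not tested.

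Markers of cells that enter or adjoin the kidney were counted as well. Few of those of T and NK cells, adipocytes and pancreas acinar cells passed the filter on low counts. Plasma and B cell markers, which matter here because plasma cells are rich in ER chaperones, were lower in Case in 3 of 7 genes tested, against 6.91% of all genes, with sums of 12.7 to 25.8 in Ctrl, 7.45 to 21.0 in Case and 7.95 to 80.5 in Dapa. Igkc was -1.59 (q = 0.0442) and Jchain -1.57 (q = 0.0430) in Case, and only Sdc1, which epithelial cells also express, was called in Dapa, higher (0.63, q = 0.00175). Macrophage markers had sums of 27.6 to 47.5 in Ctrl, 29.3 to 207 in Case and 25.9 to 63.1 in Dapa. Of 13 rows tested in Case (Itgam has 2) Cd14 alone was called (1.41, q = 0.0284), as it was of 11 in Dapa (1.04, q = 0.0190). Of all genes, 6.09% were called higher in Case and 14.2% in Dapa.

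T and NK cell markers had sums of 0.943 to 6.28 FPKM over all mice, with 1 gene tested and none called in Case. In Dapa 1 of 3 was called higher, against 14.2% of all genes. Adipocyte markers summed to 20.9 to 114 in Ctrl, 25.1 to 35.5 in Case and 25.8 to 60.7 in Dapa. Of 4 tested the lipase Pnpla2 was called, in Dapa (0.31, q = 0.0401), against the same 14.2% of all genes. Pancreas acinar markers, 6 of 12 of which were in the table, summed to 14.4 to 57.5 over all mice, with 1 gene tested and none called. No marker found in the table was at 0 in all mice. The part of these cells in the values of the members was not tested.

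Reads of several members can be shared with copies elsewhere in the genome. Of all stretches of 50 bases in a member's transcripts, the share found also in another gene was 62.3% for Hspa1b (with Hspa1a), 60.4% for Hspa1a, 48.8% for Hspb1, 47.5% for Hsp90aa1, 39.7% for Hspd1, 38.6% for Hspa8, 18.4% for Hspe1, 11.9% for Dnaja1, 5.50% for Dnajb9, 3.44% for Hsp90ab1 and 2.96% for Hsp90b1. It was at most 0.381% for the other members, with Hsph1, Edem1 and Ppp1r15a at 0%. Transcripts of Hspd1 and Hspe1 overlap at their 5′ ends on opposite strands. Levels of the members with high shares are therefore uncertain, since how shared reads were counted is not given in the sources used here. The libraries were strand-specific, but whether Stringtie was run with strand is not given either, so reads where Hspd1 and Hspe1 overlap may be split between them.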

How the data were processed

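RNA of 17 kidneys was used, 1 library per mouse, in the groups of the labels. Alignment to mm10 was done by the authors with HISAT2 and counting with Stringtie, and both read counts and FPKM were deposited for each mouse. Although the study's methods place TMM scaling ahead of FPKM, the deposited FPKM followed counts over total and length, without a TMM factor. Over genes with high counts in every library the deviation was at most 0.0015%. Of 22561 genes, 3 with broken entries (Sirt1, Tgfb1 and Bmp4) were left out. Libraries held 13039535 to 17779635 counts, and genes near 10 counts have a large counting error. p-values set a difference between groups, or a correlation of genes, against the variation between these mice.

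edgeR 4.0.16 in R 4.3.3 was run on the counts of the 2 groups compared, with TMM scaling, filterByExpr, its quasi-likelihood test and Benjamini-Hochberg adjustment over all genes tested. SE is the log2 fold change over the square root of F. Other tests and figures used Python 3.11.15, numpy 2.4.6, pandas 2.3.3, scipy 1.17.1 and matplotlib 3.10.9, and tests were tested on simulated data.

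The members and lists were chosen with earlier results of these data known. Values of each Ctrl mouse, and the lowest, median and highest of Case and Dapa, are given for 22 members, which were called in any comparison or, in their branch, had the highest mean FPKM or the smallest p between Case and Ctrl or Dapa and Case. Of each other list up to 3 called genes with the largest change and a mean of at least 1 FPKM in a group are named, and a gene that met this rule is not reported. Hspa5, Hspa1a, Hspa1b, Hspb1, Hsp90b1 and Xbp1 were also looked at by mouse after their values were seen. Results were recomputed with DESeq2 1.42.0, the exact test of edgeR, limma 3.58.1 on log2(FPKM + 1) and log2(FPKM + 0.1), voom with sample weights, other scalings and filters, all 3 groups in one fit, a term for the 7 libraries, a block for the replicate number, and 1 mouse left out at a time. Fits without the 7 libraries or on them alone were added after the data were seen. Promoter sequences came from RefSeq (GRCm38.p6).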

Additional observations from a re-analysis of the deposited data

Results flagged for a closer look

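In 9 of 123 groups of mice and members, 1 mouse lay apart from the others of its group by Dixon's test at the 95% level, which chance does in about 1 group in 20. All 9 were the highest of their group, and 8 were ER chaperones. In Ctrl 5, Hsp90b1 stood at 88.3 FPKM (nearest mouse 74.5), Pdia4 at 48.8 (34.1) and Creld2 at 28.1 (15.1). In Dapa 8, Pdia4 was 44.7 (26.7), Pdia6 44.0 (29.6) and P4hb 184 (143). Case 1 gave Dnajb9 at 48.7 (37.4) and Dnajc3 at 43.0 (36.0). The ninth was the small heat shock gene Hspb1 in Case 2, at 7.24 (3.83).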

How the results depend on the processing

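Between Case and Ctrl 9 members were called under each alternative test, scaling and filter on all mice, and 8 to 9 with 1 mouse left out. Between Dapa and Case it was 0 in every setting run, also with 1 mouse left out (0 to 0). Between Dapa and Ctrl it was 16, and 12 to 22 with 1 mouse left out, 21 with DESeq2, 19 with edgeR's exact test and 14 with limma, where over all genes it was 4260, 3227 to 4690, 4902, 4470 and, with either pseudocount of limma, 4406 or 4434. Every member called on all mice kept its sign in every setting. Hspa1b was not called on all mice between Dapa and Ctrl (0.40) and was called with the other sign (-1.37) without the 7 mismatched libraries. Without the 7 mismatched libraries, chosen after seeing the data, 3 members were called between Case and Ctrl (258 of all genes) and 5 between Dapa and Ctrl, from fewer mice. On the mismatched libraries alone, 12 were called between Dapa and Ctrl (3041 of 14654 over all genes).

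Numbers shared by Ctrl and Case did not pair the mice (r of same-numbered deviations -0.06, -0.05, -0.01, -0.05 and -0.03). With the number as a block, on numbers 1 to 5, 6 members were called against 9 without it, and 699 against 1615 of all genes, with Hsp90aa1, Hspd1 and Ppp1r15a lost. No Ctrl mouse correlated best with the Case mouse of its own number.

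With no group mean removed, r was 0.390 for Hspa1b and Dnajb1 (q = 0.193) and 0.474 for Hspa5 and Sdf2l1 (q = 0.107). The cause was not tested. With 1 mouse left out, the mitochondrial share was higher by 2.67 to 4.16 percentage points in Case than in Ctrl and by 3.32 to 4.90 in Dapa than in Ctrl, and the share of the 10 most abundant genes by 2.31 to 3.59 and 2.82 to 4.23. These differences passed the threshold without Case 5 (q = 0.0238) and without Dapa 7 or Dapa 8 (q = 0.0390).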
